A study of Bos taurus with 12 samples.

Results

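The DNA replication genes are 41 genes of origin licensing, the replicative helicase, the clamp and polymerases, nucleotide supply and chromatin assembly at the fork, and their mRNA was compared in epithelial cells of the bovine oviduct. A gene was read on the probeset whose only annotated symbol was its own, and on the one with the highest mean over the 12 arrays where there was more than 1. In this way 40 of the 41 genes were read, out of 18010 genes with a symbol of their own. RFC1, the large subunit of the clamp loader, shared its probeset with SCFD2 and was not read.

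Epithelial cells of the isthmus and of the ampulla came from 6 normally cycling Angus heifers, with 1 array per heifer and tissue and 3 heifers per phase. Heifers of the follicular phase (FP, taken as high in estradiol) received 25 mg of prostaglandin F2α on day 6, and their oviducts were collected 36 h after it. Heifers of the luteal phase (LP, taken as high in progesterone) were killed on day 11 to 12 without that treatment. Phase and treatment cannot be told apart, and the study gives no measured hormone levels. The labels count these days from ovulation, and the methods of the study count the same days from estrus. The cells were squeezed out of tissue sections of the oviduct on the side of the preovulatory follicle (FP) or the corpus luteum (LP), and other cells of the tissue could come with them. In such a preparation fewer cells of a type and less RNA per cell cannot be told apart.

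A cell copies its DNA once per cycle, and it prepares for this in a fixed order. The origin recognition complex, CDC6 and CDT1 load the ring of MCM2 to MCM7 onto origins before S phase, and geminin (GMNN) then holds CDT1 back. CDC45 and the GINS complex turn the loaded ring into a moving helicase, behind which PCNA tethers the polymerases, and ribonucleotide reductase and thymidylate synthase supply the nucleotides. Many of these genes are transcribed under E2F factors late in G1 and in S phase, so their mRNA is commonly read as a mark of proliferating cells. In the oviducts of several mammals estradiol is known to promote growth and ciliogenesis of the epithelium.

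Signals are given on the log2 scale, so that a difference of 1 is a fold change of 2. FP and LP were compared within each tissue with limma over all 26773 probesets, and a gene was called at a Benjamini-Hochberg adjusted p under 0.05 and a fold change that reached 1.5. The p-values rest on 3 heifers per phase. The labels pair the isthmus and the ampulla of each heifer. After the group means were removed, the correlation of the isthmus with the ampulla over all probesets was 0.26, 0.22 and 0.37 for the same LP heifer and between -0.22 and -0.05 for different LP heifers. The FP values were -0.05, -0.17 and -0.10 within heifers 1, 2 and 3, while the ampulla of FP heifer 1 went with the isthmus of FP heifer 2 (0.24), the ampulla of FP heifer 2 with the isthmus of FP heifer 3 (0.24) and the ampulla of FP heifer 3 with the isthmus of FP heifer 1 (0.16). The pairing of the labels was thus seen in the LP arrays and not in the FP arrays, and it enters neither comparison between phases. Whether equal numbers stand for the same heifer in both tissues of the FP was not tested further.

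In the FP versus the LP groups, 13 of 40 members were higher within epithelial cells of the isthmus and none was lower, where 5.31% of all genes were higher and 4.59% were lower. Within epithelial cells of the ampulla 19 of 40 members were higher and none was lower, where 5.50% of all genes were higher and 3.64% were lower. At an unadjusted p under 0.05, in either direction, limma gave 24 of 40 members in the isthmus (34.1% of all genes) and 30 in the ampulla (34% of all genes). The difference was above 0 in 33 of 40 members in the isthmus, with a median of 0.39 against -0.01 over all genes, and in 38 of 40 members in the ampulla, with a median of 0.62 against -0.02 over all genes.

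In both tissues 12 members were called, where 3.10% of all genes were higher in both. They were ORC1, CDC6, MCM2, MCM6, MCM10, GINS2, PCNA, RFC4, POLE, POLE2, RRM2 and UHRF1. CDT1 was called in the isthmus alone, and MCM5, GINS1, RFC2, RRM1, TK1, CHAF1A and CHAF1B were called in the ampulla alone. The phase by tissue interaction, isthmus minus ampulla, passed an adjusted p of 0.05 in 0.172% of all genes and in no member with limma (4 of 40 members at an unadjusted p under 0.05, against 10.7% of all genes), so a call in 1 tissue alone does not show a difference between the tissues. The 20 members called in neither tissue were ORC6, GMNN, MCM3, MCM4, MCM7, CDC45, GINS3, GINS4, RFC3, RFC5, POLA1, POLA2, PRIM1, PRIM2, POLD1, POLD2, POLD3, FEN1, LIG1 and TYMS. All 3 FP arrays lay above all 3 LP arrays in 22 members in the isthmus (18.9% of all genes) and in 30 members in the ampulla (19.7% of all genes). All FP arrays lay below all LP arrays in 1 member in the isthmus, RFC5 (19.9% of all genes), and in none in the ampulla (20.4% of all genes).

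**Figure D1:**
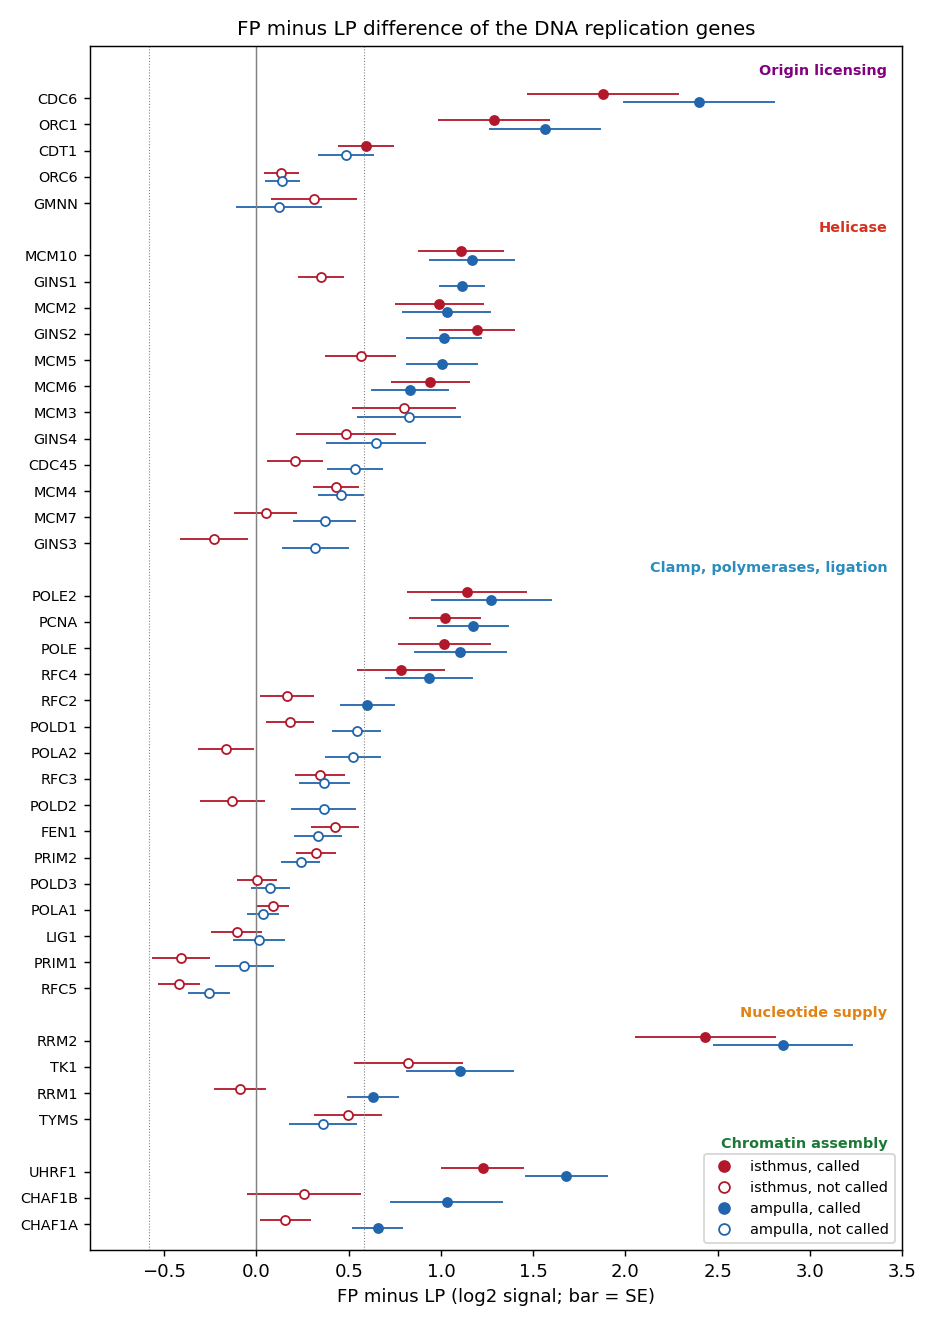
FP minus LP difference of each of the 40 members in log2 signal (x axis), with its standard error as a bar, in the isthmus (red) and the ampulla (blue), grouped by role. Filled points were called and the dotted lines mark a fold change of 1.5; RRM2 and CDC6 lie farthest to the right in both tissues, and no filled point lies below 0.

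**Figure D2:**
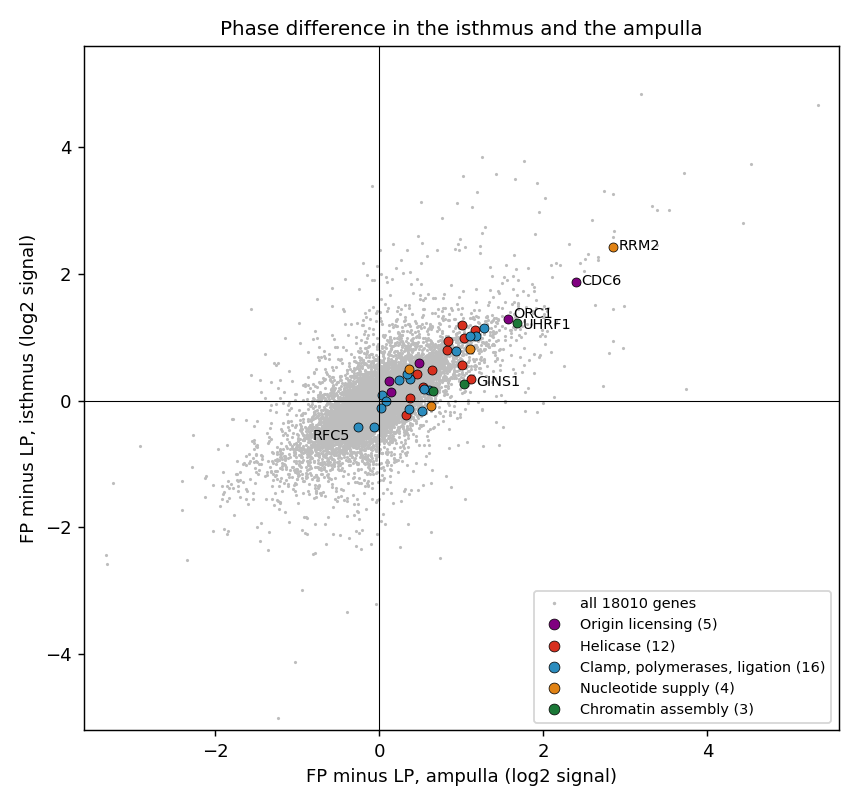
FP minus LP difference in the ampulla (x axis, log2 signal) against that in the isthmus (y axis, log2 signal) for all 18010 genes (grey) and the 40 members (coloured by role). The members spread from RFC5, at -0.26 and -0.42, to RRM2, at 2.85 and 2.43.

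Origin licensing held CDC6, the factor that recruits the MCM ring together with CDT1. Its signal was 6.72, 7.10 and 8.03 in the isthmus of the FP heifers 1, 2 and 3, against 5.11, 5.57 and 5.53 in the LP heifers. In the ampulla it was 8.08, 8.87 and 7.27 in the FP heifers, against 5.50, 5.39 and 6.13 in the LP heifers. Every FP array was above every LP array of its tissue, and the difference was 1.88 ± 0.41 in the isthmus (SE, adjusted p = 0.011) and 2.40 ± 0.41 in the ampulla (SE, adjusted p = 0.0035). Both LP means of CDC6 lay under 5.76, the lower quartile of all values, so the size of these differences is uncertain.

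ORC1, the largest subunit of the origin recognition complex, was also higher in both tissues of the FP heifers. Its signal was 6.83, 7.08 and 7.84 in the isthmus of the FP heifers, against 6.21, 5.64 and 6.05 in the LP heifers, and 7.79, 8.30 and 7.28 in the ampulla of the FP heifers, against 5.91, 6.32 and 6.45 in the LP heifers. The groups did not overlap in either tissue, and the difference was 1.29 ± 0.30 in the isthmus (SE, adjusted p = 0.016) and 1.56 ± 0.30 in the ampulla (SE, adjusted p = 0.0066). ORC6, the small subunit of the same complex, had differences of 0.13 and 0.14 and overlapping groups. Leaving out LP heifer 1 raised the adjusted p of CDC6 in the isthmus to 0.054, and leaving out LP heifer 2 raised that of ORC1 in the isthmus to 0.081. The ampulla calls of both genes held without each of the 6 heifers.

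CDT1, the loader that geminin inhibits, had signals of 7.32, 7.61 and 7.51 in the isthmus of the FP heifers, against 6.88, 7.07 and 6.71 in the LP heifers. In the ampulla the signals were 7.31, 7.91 and 7.46 in the FP heifers, against 7.06, 7.01 and 7.15 in the LP heifers. Neither pair of groups overlapped, and the difference was 0.59 ± 0.15 in the isthmus (SE, adjusted p = 0.023) and 0.48 ± 0.15 in the ampulla (SE, adjusted p = 0.055). The isthmus call was lost without FP heifer 2, FP heifer 3, LP heifer 1 or LP heifer 3 (highest adjusted p = 0.097). GMNN had 8.02, 8.15 and 8.41 in the isthmus of the FP heifers, against 7.40, 7.79 and 8.46 in the LP heifers, and 8.65, 8.82 and 8.34 in the ampulla of the FP heifers, against 8.38, 8.47 and 8.60 in the LP heifers. The groups of GMNN overlapped in both tissues, with differences of 0.31 ± 0.23 (SE, adjusted p = 0.42) in the isthmus and 0.12 ± 0.23 (SE, adjusted p = 0.79) in the ampulla.

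**Figure D3:**
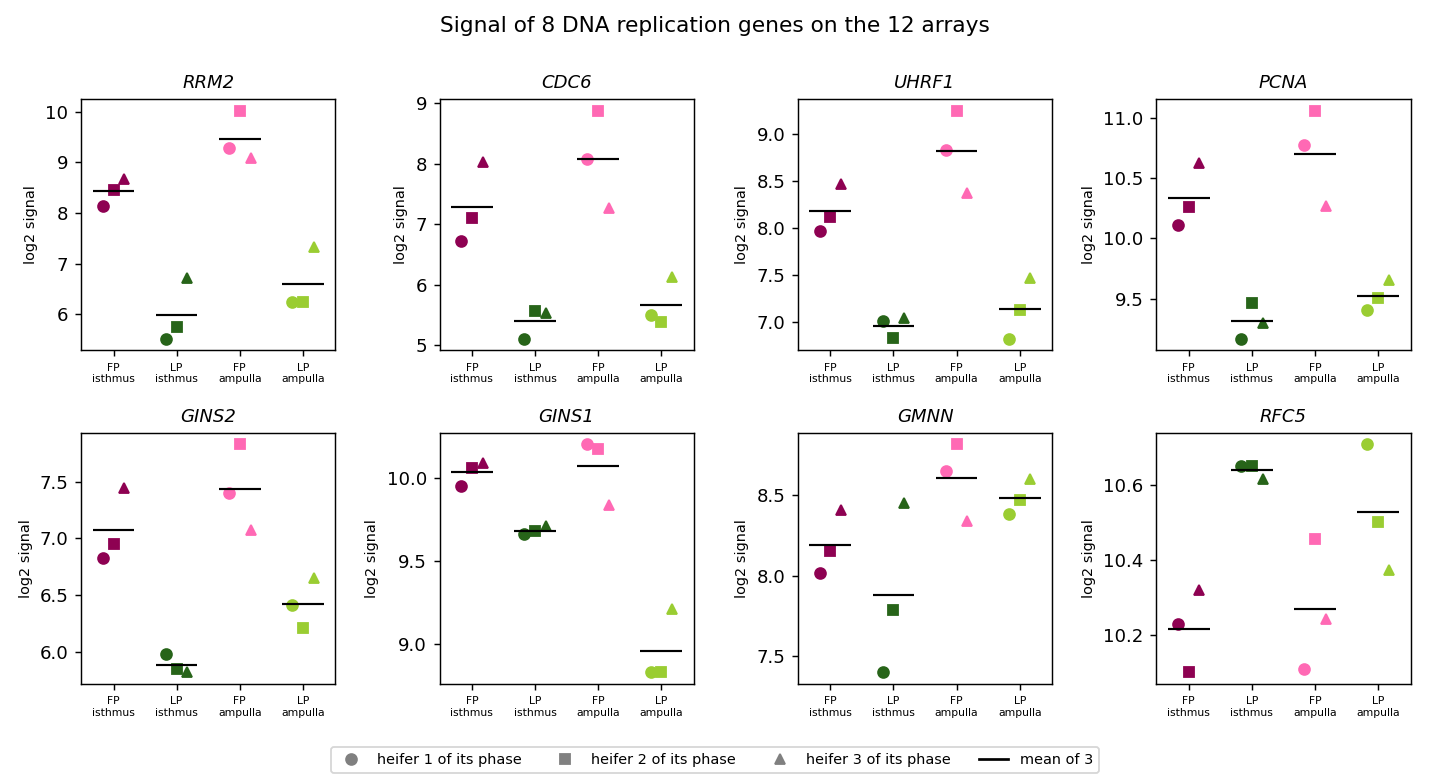
Log2 signal (y axis) of 8 members on the 12 arrays, by phase and tissue (x axis). Each point is 1 array, its shape gives the heifer number within the phase and the line is the mean of 3; in RRM2, CDC6, UHRF1, PCNA and GINS2 all FP points lie above all LP points of the same tissue, whereas GMNN overlaps and RFC5 lies lower in the FP isthmus than in the LP isthmus.

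Among the 12 helicase members 4 were called higher in the isthmus (5.31% of all genes) and 6 in the ampulla (5.50% of all genes). GINS2, a subunit of the GINS complex, had signals of 6.83, 6.95 and 7.45 in the isthmus of the FP heifers, against 5.98, 5.85 and 5.82 in the LP heifers. In the ampulla it had 7.40, 7.83 and 7.07 in the FP heifers, against 6.41, 6.21 and 6.65 in the LP heifers. The difference was 1.19 ± 0.21 in the isthmus (SE, adjusted p = 0.0033) and 1.01 ± 0.21 in the ampulla (SE, adjusted p = 0.0081), with no overlap, and it was called without each of the 6 heifers in both tissues. MCM10, which helps the helicase to start and to bind polymerase α, had 8.17, 8.16 and 8.47 in the isthmus of the FP heifers, against 7.42, 7.51 and 6.53 in the LP heifers, and 8.58, 8.90 and 8.51 in the ampulla of the FP heifers, against 7.51, 7.68 and 7.30 in the LP heifers. LP heifer 3 was the lowest in both tissues, and the difference was 1.11 ± 0.23 in the isthmus (SE, adjusted p = 0.0090) and 1.17 ± 0.23 in the ampulla (SE, adjusted p = 0.0076). The adjusted p of MCM10 was 0.0501 in the isthmus without FP heifer 3 and 0.051 in the ampulla without FP heifer 2.

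Among the subunits of the MCM ring itself, MCM2 and MCM6 were called in both tissues and MCM5 in the ampulla alone. MCM2 had 7.68, 8.05 and 8.21 in the isthmus of the FP heifers, against 6.94, 6.68 and 7.35 in the LP heifers, and 8.31, 8.98 and 8.03 in the ampulla of the FP heifers, against 7.51, 7.37 and 7.35 in the LP heifers. The MCM2 groups did not overlap, and the difference was 0.99 ± 0.24 in the isthmus (SE, adjusted p = 0.018) and 1.03 ± 0.24 in the ampulla (SE, adjusted p = 0.016). MCM6 differed by 0.94 in the isthmus and 0.83 in the ampulla, MCM5 by 0.56 and 1.01, MCM3 by 0.80 and 0.83, MCM4 by 0.43 and 0.46, and MCM7 by 0.05 and 0.37. The adjusted p of MCM3 was 0.078 in the isthmus and 0.071 in the ampulla, although its groups did not overlap in either tissue. MCM4 passed an adjusted p of 0.05 in both tissues (0.039 and 0.031) at less than 1.5-fold, and its second probeset, with differences of 0.62 and 0.43, had adjusted p values of 0.060 and 0.19. The MCM2 call was lost in the isthmus without FP heifer 3, LP heifer 1 or LP heifer 2 (highest adjusted p = 0.091) and in the ampulla without FP heifer 2 or LP heifer 1 (0.069). That of MCM6 was lost in the ampulla without FP heifer 1, FP heifer 2, LP heifer 1 or LP heifer 2 (0.11), whereas MCM6 in the isthmus and MCM5 in the ampulla were called without each heifer.

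GINS1 had a smaller difference between the phases in the isthmus than in the ampulla. It shared this with other members, whose interactions were -0.77 (CHAF1B), -0.72 (RRM1) and -0.69 (POLA2), none of them called with limma. The signal of GINS1 was 9.95, 10.06 and 10.09 in the isthmus of the FP heifers, against 9.66, 9.68 and 9.71 in the LP heifers. In the ampulla it was 10.21, 10.18 and 9.84 in the FP heifers, against 8.83, 8.83 and 9.21 in the LP heifers. The LP ampulla was thus the low group, while the LP isthmus lay only a little under both FP groups. FP minus LP was 0.35 ± 0.13 in the isthmus (SE, adjusted p = 0.082) and 1.12 ± 0.13 in the ampulla (SE, adjusted p = 0.00034), and the ampulla call held without each heifer. The interaction was -0.77 ± 0.18 (SE, adjusted p = 0.17), which did not pass the threshold in limma. It passed with the F-test and least significant differences, where the p of the contrast itself, 0.0026, was not adjusted. The methods name that test for the phases within a tissue and not for an interaction. The other members of the group were not called: CDC45, which joins the ring to the GINS complex, differed by 0.21 in the isthmus and 0.53 in the ampulla (adjusted p = 0.036 at less than 1.5-fold), GINS3 by -0.23 and 0.32, and GINS4 by 0.49 and 0.65. The LP mean of GINS4 in the isthmus, 5.50, lay under the lower quartile of all values.

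Of the 16 members that load the clamp, copy the strands and join them, 4 were called higher in the isthmus (5.31% of all genes) and 5 in the ampulla (5.50% of all genes). PCNA, the sliding clamp itself, had signals of 10.11, 10.26 and 10.63 in the isthmus of the FP heifers, against 9.17, 9.47 and 9.30 in the LP heifers. Its signals in the ampulla were 10.77, 11.06 and 10.27 in the FP heifers, against 9.41, 9.51 and 9.66 in the LP heifers. Neither pair overlapped, and the difference was 1.02 ± 0.19 in the isthmus (SE, adjusted p = 0.0056) and 1.18 ± 0.19 in the ampulla (SE, adjusted p = 0.0029), called without each heifer in both tissues. POLE2 and POLE are subunits of polymerase ε, which copies the leading strand. POLE2 had 7.45, 7.97 and 8.20 in the isthmus of the FP heifers, against 6.28, 7.01 and 6.91 in the LP heifers, and 8.68, 8.66 and 7.61 in the ampulla of the FP heifers, against 6.67, 7.05 and 7.41 in the LP heifers. POLE had 7.24, 7.40 and 8.08 in the isthmus of the FP heifers, against 6.33, 6.76 and 6.56 in the LP heifers, and 8.22, 8.62 and 7.72 in the ampulla of the FP heifers, against 6.93, 7.22 and 7.09 in the LP heifers. In both genes FP heifer 3 was the lowest FP array of the ampulla and the highest of the isthmus. The difference of POLE2 was 1.14 ± 0.33 in the isthmus (SE, adjusted p = 0.036) and 1.27 ± 0.33 in the ampulla (SE, adjusted p = 0.024), and that of POLE was 1.02 ± 0.25 (SE, adjusted p = 0.019) and 1.10 ± 0.25 (SE, adjusted p = 0.014).

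RFC4, a small subunit of the clamp loader, had 9.34, 9.37 and 9.79 in the isthmus of the FP heifers, against 8.85, 8.87 and 8.43 in the LP heifers, and 10.10, 10.41 and 9.64 in the ampulla of the FP heifers, against 9.24, 9.43 and 8.69 in the LP heifers. The difference was 0.78 ± 0.24 in the isthmus (SE, adjusted p = 0.046) and 0.93 ± 0.24 in the ampulla (SE, adjusted p = 0.023), with no overlap. The isthmus call of RFC4 was lost without any one of the 6 heifers (highest adjusted p = 0.11), and its ampulla call without FP heifer 1, FP heifer 2, LP heifer 1 or LP heifer 3 (0.12). The call of POLE2 was lost in the isthmus without FP heifer 2, FP heifer 3 or any LP heifer (0.12) and in the ampulla without FP heifer 1, FP heifer 2, LP heifer 1 or LP heifer 2 (0.12). The call of POLE was lost in the isthmus without LP heifer 1 or LP heifer 3 (0.081) and in the ampulla without FP heifer 2 or LP heifer 1 (0.071). RFC2, another clamp loader subunit, differed by 0.17 in the isthmus and by 0.60 in the ampulla, where it was called (adjusted p = 0.019) and the call was lost without FP heifer 2 or any LP heifer (0.085).

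The remaining 11 of these 16 members were called in neither tissue. POLD1 (0.54, adjusted p = 0.018) and POLA2 (0.52, adjusted p = 0.039) in the ampulla and FEN1 (0.43, adjusted p = 0.048) in the isthmus passed the p threshold at less than 1.5-fold. The subunits of polymerase α and primase, which lay down the primers, had differences of 0.09 and 0.03 (POLA1), -0.17 and 0.52 (POLA2), -0.41 and -0.07 (PRIM1) and 0.32 and 0.24 (PRIM2) in the isthmus and the ampulla in that order. Those of polymerase δ, the lagging strand polymerase, had 0.18 and 0.54 (POLD1), -0.13 and 0.36 (POLD2) and 0.00 and 0.08 (POLD3), and a second probeset of POLD1 had 0.09 and 0.45. FEN1 and LIG1, which trim and join the fragments of that strand, had 0.43 and 0.33, and -0.11 and 0.01. RFC3 had 0.34 and 0.37.

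RFC5, also a small subunit of the clamp loader and singled out after its values were seen, was the member with the lowest difference in either tissue. Its mean signal was 10.22 ± 0.11 in the isthmus of the FP heifers, against 10.64 ± 0.02 in the LP heifers (SD, n = 3 each), and 10.27 ± 0.17 in the ampulla of the FP heifers, against 10.53 ± 0.17 in the LP heifers (SD, n = 3 each). The difference in the isthmus, -0.42 ± 0.11 (SE, adjusted p = 0.027), passed the p threshold without reaching 1.5-fold, and that in the ampulla was -0.26 ± 0.11 (SE, adjusted p = 0.15). PRIM1 had a larger negative difference in the isthmus when FP heifer 3 was left out, -0.59 (adjusted p = 0.034), the only member and setting in which a member was lower at 1.5-fold between the phases.

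Nucleotide supply held the member with the largest difference in both tissues, RRM2, the small subunit of ribonucleotide reductase that rises in S phase. Its signal was 8.15, 8.46 and 8.68 in the isthmus of the FP heifers, against 5.52, 5.74 and 6.72 in the LP heifers, and 9.29, 10.02 and 9.07 in the ampulla of the FP heifers, against 6.23, 6.25 and 7.33 in the LP heifers. LP heifer 3 was the highest LP heifer in both tissues, and still lay below every FP array. The difference was 2.43 ± 0.38 in the isthmus (SE, 5.40-fold, adjusted p = 0.0021) and 2.85 ± 0.38 in the ampulla (SE, 7.23-fold, adjusted p = 0.00094), and it was called without each heifer in both tissues. The LP isthmus arrays of heifers 1 and 2 lay under the lower quartile of all values, so the fold in the isthmus is uncertain.

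RRM1, the large subunit of the same enzyme, had 10.34, 10.40 and 10.48 in the isthmus of the FP heifers, against 10.25, 10.83 and 10.40 in the LP heifers, and 10.51, 10.74 and 10.40 in the ampulla of the FP heifers, against 9.86, 10.01 and 9.89 in the LP heifers. Only the ampulla groups were apart, with a difference of 0.63 ± 0.14 (SE, adjusted p = 0.013), against -0.09 ± 0.14 in the isthmus (SE, adjusted p = 0.74), and the interaction was -0.72 ± 0.20 (SE, adjusted p = 0.26). TK1, the thymidine kinase of the salvage pathway, had 7.93, 8.06 and 8.41 in the isthmus of the FP heifers, against 7.42, 6.89 and 7.61 in the LP heifers, and 8.31, 8.82 and 7.70 in the ampulla of the FP heifers, against 6.75, 7.35 and 7.43 in the LP heifers. The TK1 groups did not overlap in either tissue, and the difference was 0.82 ± 0.29 in the isthmus (SE, adjusted p = 0.083) and 1.10 ± 0.29 in the ampulla (SE, adjusted p = 0.028). The ampulla call of RRM1 was lost without FP heifer 1 or FP heifer 2 (highest adjusted p = 0.081), and that of TK1 without FP heifer 1, FP heifer 2 or LP heifer 1 (0.13).

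TYMS, thymidylate synthase, had 8.66, 8.78 and 9.29 in the isthmus of the FP heifers, against 8.48, 8.28 and 8.49 in the LP heifers, and 9.26, 9.80 and 9.21 in the ampulla of the FP heifers, against 9.00, 9.02 and 9.16 in the LP heifers. Although the FP arrays lay above the LP arrays in both tissues, the differences of 0.50 ± 0.18 (SE, adjusted p = 0.094) in the isthmus and 0.36 ± 0.18 (SE, adjusted p = 0.23) in the ampulla were not called.

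All 3 chromatin members were called higher in the ampulla (5.50% of all genes) and 1 of them in the isthmus (5.31% of all genes). UHRF1, which carries DNA methylation over to the new strand, had 7.97, 8.12 and 8.46 in the isthmus of the FP heifers, against 7.004, 6.82 and 7.04 in the LP heifers, and 8.83, 9.25 and 8.37 in the ampulla of the FP heifers, against 6.82, 7.12 and 7.46 in the LP heifers. Both pairs were well apart, and the difference was 1.23 ± 0.23 in the isthmus (SE, adjusted p = 0.0047) and 1.68 ± 0.23 in the ampulla (SE, adjusted p = 0.00097), called without each heifer. CHAF1A and CHAF1B are subunits of the assembly factor that places histones on new DNA. CHAF1B had 6.90, 7.38 and 8.04 in the isthmus of the FP heifers, against 7.02, 7.03 and 7.50 in the LP heifers, and 8.18, 8.59 and 7.63 in the ampulla of the FP heifers, against 7.29, 6.75 and 7.26 in the LP heifers. CHAF1A had 6.66, 6.96 and 7.19 in the isthmus of the FP heifers, against 6.74, 6.66 and 6.95 in the LP heifers, and 7.36, 7.42 and 7.17 in the ampulla of the FP heifers, against 6.54, 6.70 and 6.74 in the LP heifers. For both subunits the groups overlapped only in the isthmus, with differences of 0.26 and 1.03 for CHAF1B (adjusted p = 0.64 and 0.044) and of 0.16 and 0.66 for CHAF1A (adjusted p = 0.51 and 0.0095). The ampulla call of CHAF1B was lost without any heifer other than FP heifer 3 (highest adjusted p = 0.19), and that of CHAF1A without FP heifer 2 or LP heifer 1 (0.062).

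The FP heifers differed among themselves in most members at once. Each member was centred on its mean over the 12 arrays and the members were averaged, which gave -0.08, 0.06 and 0.38 in the isthmus of FP heifers 1, 2 and 3, against -0.46, -0.38 and -0.35 in the LP heifers. In the ampulla the average was 0.47, 0.85 and 0.21 in the FP heifers, against -0.30, -0.24 and -0.15 in the LP heifers. Every FP array was above every LP array of its tissue on this scale, but the spread was in the FP. FP heifer 3 had the highest FP isthmus signal in 38 of 40 members (36.3% of all genes) and the lowest FP ampulla signal in 33 (34.9% of all genes). FP heifer 2 had the highest FP ampulla signal in 38 of 40 members (35.7% of all genes), and FP heifer 1 the lowest FP isthmus signal in 33 (33.5% of all genes).

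**Figure D4:**
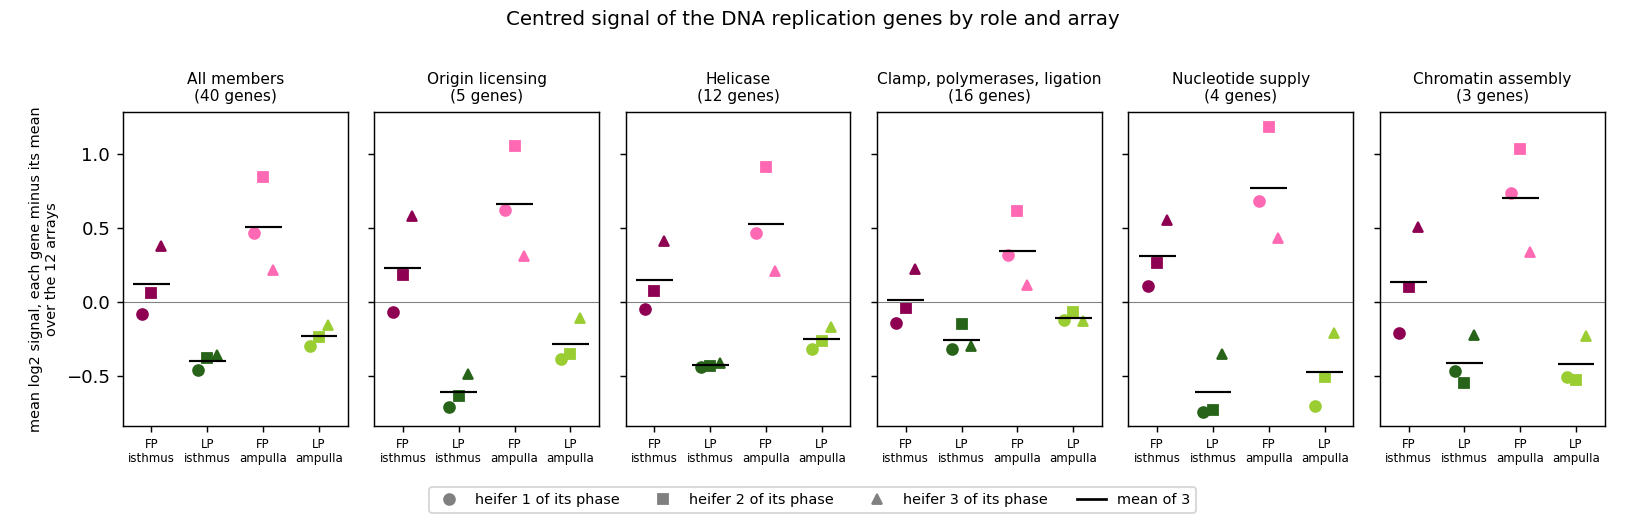
Mean log2 signal of the members of each role, each gene centred on its mean over the 12 arrays (y axis), for the 12 arrays by phase and tissue (x axis; shape is the heifer number within the phase, line is the mean of 3). In each role FP heifer 3 is the highest FP array of the isthmus and the lowest of the ampulla.

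**Figure D5:**
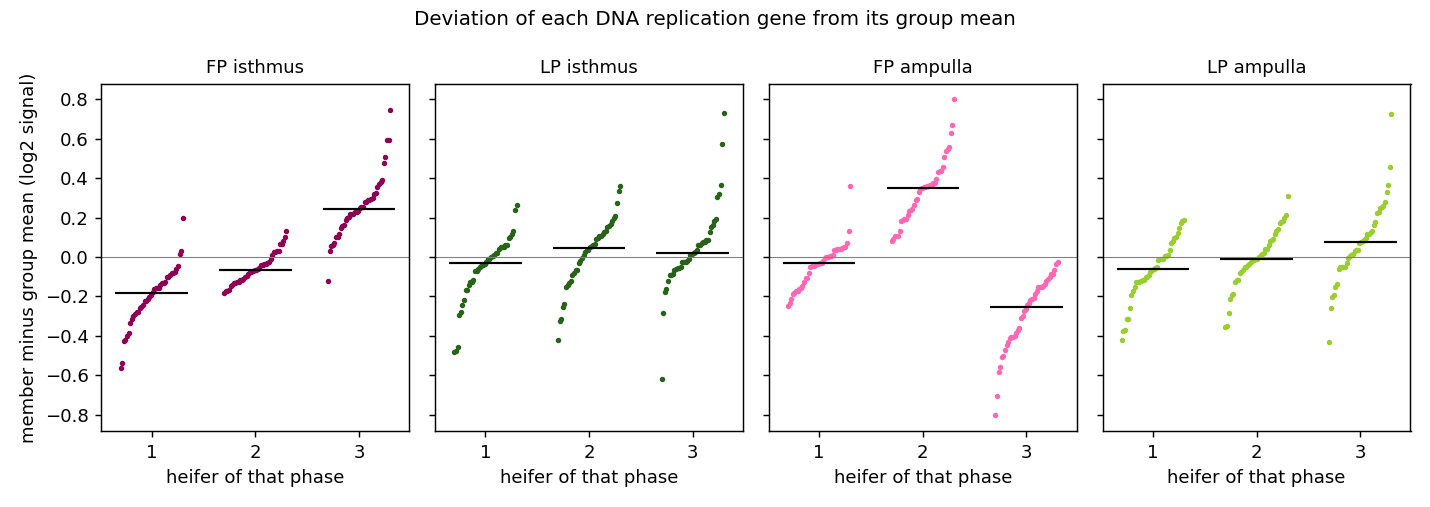
Deviation of each of the 40 members from its group mean in log2 signal (y axis), by heifer (x axis), in the 4 groups. Points are members and the line is their median; in the FP isthmus nearly all points of heifer 3 lie above 0, and in the FP ampulla all points of heifer 2 lie above 0 and all of heifer 3 below it, whereas the LP heifers straddle 0.

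The median SD of the members over 3 heifers was 0.25 in the FP isthmus, against 0.12 in the LP isthmus, and 0.31 in the FP ampulla, against 0.15 in the LP ampulla. Over all genes the median SD was between 0.12 and 0.14 in the 4 groups, so the members varied more than the typical gene among FP heifers and about as much among LP heifers. The FP ampulla was the group with the largest SD in 26 of the 40 members. Over the members, deviations from the group mean in the ampulla of FP heifer 2 correlated with those in the isthmus of FP heifer 3 (r = 0.68 over 40 genes) and those in the ampulla of FP heifer 3 with those in the isthmus of FP heifer 1 (r = 0.69), while r was 0.0016 between the ampulla of FP heifer 1 and the isthmus of FP heifer 2. It was -0.16, -0.15 and -0.70 within FP heifers 1, 2 and 3. The deviations in a group sum to 0 over its heifers and the genes move together, so these correlations are not independent of each other.

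The number of members called changed with the heifers left out, each of which, as labelled, also takes 2 arrays from the fit. In the isthmus 8 members were called without FP heifer 3 and 7 without LP heifer 1, and the range over the 6 heifers left out was 7 to 12, against 13 with all. In the ampulla 8 members were called without FP heifer 2 and 10 without LP heifer 1, and the range was 8 to 24, against 19 with all, the 24 being found without FP heifer 3. Over all genes the higher calls in the isthmus numbered 742 without FP heifer 3 and 911 without LP heifer 1, against 957 with all. In the ampulla they numbered 766 without FP heifer 2, 793 without LP heifer 1 and 981 without FP heifer 3, against 990 with all. The calls of 5 members in the isthmus, MCM6, GINS2, PCNA, RRM2 and UHRF1, and of 8 in the ampulla, ORC1, CDC6, MCM5, GINS1, GINS2, PCNA, RRM2 and UHRF1, held without each heifer.

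Between the tissues the members were compared within each phase. In the LP, GINS1 was higher in the isthmus than in the ampulla by 0.73 ± 0.13 (SE, adjusted p = 0.0041) and TYMS was lower in the isthmus by 0.64 ± 0.18 (SE, adjusted p = 0.046), where 4.76% of all genes were higher and 3.91% were lower. The isthmus minus ampulla difference of GINS1 was 0.83, 0.85 and 0.50 in the 3 LP heifers, and that of TYMS was -0.52, -0.75 and -0.66. Both genes differed in 1 direction in each LP heifer. With the heifer as a fixed block the adjusted p was 0.018 for GINS1 and 0.091 for TYMS, which was then not called. That fit takes its spread from the FP pairs of the labels as well, a pairing that the arrays did not show. The call of GINS1 was lost without LP heifer 2 (0.055) and that of TYMS without FP heifer 1 or any LP heifer (highest adjusted p = 0.22).

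In the FP no member was called between the tissues with limma (18 of 40 members at an unadjusted p under 0.05, against 20.5% of all genes), where 1.89% of all genes were higher in the isthmus and 0.983% were lower. The isthmus minus ampulla difference was below 0 in all 40 members, with a median of -0.40 against -0.01 over all genes, a range of -1.03 for RRM2 to -0.04 for GINS1, and a lowest adjusted p of 0.074. By heifer as labelled, the isthmus was lower than the ampulla in 37 and 40 of 40 members in FP heifers 1 and 2, and in 7 of 40 in FP heifer 3. In the LP heifers it was lower in 28, 26 and 28 of 40 members. The per-heifer values in the FP rest on the pairing of the labels, which the arrays did not show, so no agreement or disagreement between FP heifers is read from them. Markers of fibroblasts moved with the tissue as well. All 10 were above 0 in isthmus minus ampulla in the FP, with a median of 0.55 and DCN and FBLN1 called higher, and 6 of 10 in the LP, with a median of 0.46 and LUM, PDGFRA and FBLN1 called higher. In the FP the call of DCN was lost without any FP heifer or LP heifer 1 (highest adjusted p = 0.21) and that of FBLN1 without FP heifer 2 (0.18). In the LP the call of LUM was lost without any heifer other than LP heifer 3 (0.30) and with the heifer as a fixed block, and that of PDGFRA without LP heifer 1 or LP heifer 2 (0.075). The mean signal of the fibroblast markers was 7.76 to 8.63 in the FP isthmus, against 6.79 to 7.10 in the FP ampulla, and 7.17 to 8.51 in the LP isthmus, against 7.04 to 7.18 in the LP ampulla. Other lists differed between the tissues too. In isthmus minus ampulla 12 of 13 ciliated cell markers were below 0 in the LP and 11 in the FP. Of 13 genes of centriole amplification 10 and 11 were below 0, and 6 of 7 smooth muscle markers were above 0 in each phase. Endothelial markers were split, with 4 of 8 above 0 in each phase. Over all genes 48.6% were above 0 in the LP and 48.5% in the FP. The part of these markers in the differences of the members between the tissues was not tested.

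Other genes of the pathway were read from a list of 75 genes of origin firing, the fork, nucleotide supply, chromatin and the E2F and RB proteins, of which 68 were found. In the isthmus 13 of these were higher in the FP versus the LP groups and none was lower, where 5.31% of all genes were higher and 4.59% were lower. In the ampulla 18 were higher and 1 was lower, where 5.50% of all genes were higher and 3.64% were lower. Their median difference was 0.28 in the isthmus, against -0.01 over all genes, and 0.35 in the ampulla, against -0.02 over all genes. DTL, which directs the destruction of CDT1 on PCNA-bound DNA, differed by 2.85 in the isthmus and 2.60 in the ampulla (adjusted p = 0.0023 and 0.0040). Of the other origin factors, DBF4, the activator of the CDC7 kinase, differed by 1.00 and 0.60 and was called in both tissues, TICRR by 1.05 in the ampulla (adjusted p = 0.0027), with its LP mean of 5.26 under the lower quartile of all values, and MTBP by 1.30 in the isthmus (adjusted p = 0.034).

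Of the fork genes, PCLAF, a partner of PCNA, differed by 1.02 in the isthmus and 1.96 in the ampulla, WDHD1, which links the helicase to polymerase α, by 1.56 and 1.34, and DNA2, a nuclease of the fork, by 0.87 and 1.15, all called in both tissues. RPA3 was called in both tissues, TIPIN and RNASEH2A in the ampulla and POLE4 in the isthmus. The ampulla calls of RPA3 and TIPIN were lost without FP heifer 2 or LP heifer 1, and the isthmus call of POLE4 without any heifer but LP heifer 2 (highest adjusted p = 0.13). SHMT2 and NME1 of the nucleotide list were called in both tissues (0.72 and 0.96, and 1.10 and 0.89), and DTYMK in the ampulla (0.94). SAMHD1, which breaks down deoxynucleotides and is expressed in myeloid cells and lymphocytes as well, differed by -0.83 in the ampulla (adjusted p = 0.028), where it was called lower, and the call was lost without any FP heifer, LP heifer 1 or LP heifer 3 (highest adjusted p = 0.12).

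In the chromatin list the histone chaperone ASF1B differed by 0.88 in the isthmus and 1.59 in the ampulla, and the helicase HELLS by 1.64 and 1.39, called in both tissues, and RBBP7 was called in the ampulla (0.62). Among the E2F and RB proteins E2F8, a repressor of S phase genes, differed by 1.22 and 1.80 and was called in both tissues, while E2F1, an activator of them, differed by 0.47 in the isthmus (adjusted p = 0.17) and 1.10 in the ampulla (adjusted p = 0.0065) and E2F4 was called in the ampulla (0.66). Of the 11 E2F and RB genes read, 6 were below 0 in each tissue and none was called lower. Their median difference was -0.025 in the isthmus and -0.14 in the ampulla. Without each heifer in turn, DTL, PCLAF, WDHD1, DNA2, SHMT2, NME1 and E2F8 were called in both tissues. Calls lost when a heifer was left out were those of MTBP in the isthmus (without any heifer other than LP heifer 1, highest adjusted p = 0.14), of ASF1B in the isthmus (without FP heifer 1, FP heifer 3, LP heifer 1 or LP heifer 2, 0.13), of HELLS in the ampulla (without FP heifer 2, LP heifer 1 or LP heifer 2, 0.069), of DBF4 in the ampulla (without FP heifer 2, LP heifer 2 or LP heifer 3, where the difference of 0.48 to 0.58 was under 1.5-fold), of RBBP7 in the ampulla (without FP heifer 1 or LP heifer 1) and of E2F4 in the ampulla (without LP heifer 1).

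Markers of the cells in the preparation were read beside these results. The epithelial keratin and junction genes had a mean signal of 10.08 to 10.51 on all arrays and those of ciliated cells of 11.02 to 11.56, so markers of the labelled cells were present. Some of them also differed between the phases. Over all genes 5.31% were called higher and 4.59% lower in the isthmus, and 5.50% higher and 3.64% lower in the ampulla. Of 7 epithelial markers KRT8 was higher in the FP in both tissues (0.72 and 0.79), and the claudins CLDN3 and CLDN4 were lower in the isthmus (-0.91 and -1.43). Of 13 ciliated cell markers 12 were below 0 in the ampulla and 7 in the isthmus, and DNAH5, a dynein of motile cilia, was called lower in both tissues (-0.69 and -0.65) and DNAH9 in the ampulla (-0.65). Of 5 secretory cell markers WT1 was higher (1.48) and PAX2 lower (-0.59) in the isthmus and none was called in the ampulla, and their mean signal was 10.78 to 10.84 in the FP isthmus, against 9.68 to 10.91 in the LP isthmus, where heifer 2 was the lowest. The calls of WT1 (without any heifer other than LP heifer 1, highest adjusted p = 0.069), of PAX2 (without FP heifer 1, FP heifer 3 or LP heifer 3) and of DNAH5 in the ampulla (without LP heifer 1) were lost when a heifer was left out, the last pair because the change was then under 1.5-fold. The part of these cells in the values of the members was not tested. Of the markers of T and NK cells 4 of 18 were called lower in the FP isthmus (4.59% of all genes) and 8 of 18 in the FP ampulla (3.64% of all genes), with none higher. Their mean signal was 6.09 to 6.43 in the FP isthmus, against 6.72 to 7.43 in the LP isthmus, and 6.07 to 6.30 in the FP ampulla, against 6.75 to 7.91 in the LP ampulla. KLRK1, an NK and T cell receptor, differed by -1.52 in the isthmus and -2.13 in the ampulla, and its call was lost in the isthmus without any FP heifer or LP heifer 1 (highest adjusted p = 0.16) and in the ampulla without FP heifer 2 (0.0501). LP heifer 3 had the highest T and NK cell signal in both tissues (7.43 and 7.91). Among LP heifers it was the highest in 15 of 40 members in the isthmus (31.6% of all genes) and in 21 of 40 in the ampulla (32.6% of all genes). RRM2 was highest in this heifer in both tissues, whereas MCM10 was lowest in it in both. Of 12 macrophage and dendritic cell markers 4 were called lower in the FP isthmus (4.59% of all genes) and 5 in the FP ampulla (3.64% of all genes). Lymphoid and myeloid cells can divide as well, and the part of these cells in the values of the members was not tested.

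Markers of fibroblasts (0 of 10 higher, 1 lower in the isthmus), smooth muscle (0 of 7 higher, 1 lower in the isthmus), endothelium (0 of 8), erythrocytes (0 of 5) and B and plasma cells (0 of 8) showed few or no calls between the phases. Over all genes 4.59% were lower in the isthmus and 3.64% in the ampulla. New ciliated cells use genes of centriole amplification, which share regulators with the cell cycle. In the FP 3 of 13 were called higher in the isthmus (5.31% of all genes) and 5 of 13 in the ampulla (5.50% of all genes), and none lower. The difference was below 0 in 2 of 13 in the isthmus and in 4 of 13 in the ampulla. Those called in both tissues were CCNO (0.89 and 1.38), STIL (1.11 and 1.46) and MCIDAS (0.61 and 0.94), a relative of geminin. PLK4 (1.13) and E2F4 were called in the ampulla, and E2F4 was counted among the E2F and RB proteins as well. In the isthmus the calls of CCNO, STIL and MCIDAS were each lost without at least 3 of the heifers, FP heifer 3, LP heifer 1 and LP heifer 2 among them (highest adjusted p = 0.11, 0.10 and 0.11). In the ampulla the call of STIL was lost without FP heifer 2 (0.053) and that of PLK4 without FP heifer 2, FP heifer 3 or LP heifer 1 (0.077). The part of ciliated cell formation in the members' values was not tested.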

How the data were processed

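The authors hybridized total RNA from 12 samples of oviduct epithelial cells to 12 Bovine Gene 1.0 ST arrays. The deposited log2 values were made by the authors with GCOS 1.2 and Partek 6.4, the versions of the submitters' processing notes, by RMA background correction, quantile normalization and median polish. They came without detection calls, and quantile normalization holds the overall distribution equal, so a change in total mRNA would not be seen. Genes were named from the platform annotation, in which 688 probesets had several symbols and 7628 had none, and 401 genes had more than 1 probeset. The number of arrays limits the precision.

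With limma 3.58.1 (R 4.3.3) the 4 group means were estimated from all 12 arrays (8 residual degrees of freedom, variances moderated by empirical Bayes), and p-values were adjusted over 26773 probesets for each contrast. The script was tested on simulated data. Plots were drawn with matplotlib 3.10.9 (Python 3.11.15). The members and lists were chosen with earlier results of these data known. Values per heifer are given for up to 4 members of each role with the largest difference between phases and for members called between tissues; of the other genes those called may be named, with values for up to 4 per list, and of markers up to 3. Alternatives were the F-test with least significant differences of the methods, the heifer as a fixed or random block, the probeset with the lowest mean, no dim probesets, trended and robust variances, arrays centred on their medians, no minimum fold, the arrays of 1 tissue alone and each heifer left out. Promoter motifs were not analysed here. The labels pair the tissues of a heifer, and the check of that pairing stands in the description of the data.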

Additional observations from a re-analysis of the deposited data

How the results depend on the processing

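The counts of members higher between the phases changed most with the heifers: 7 to 12 in the isthmus and 8 to 24 in the ampulla over the 6 heifers left out. Over all genes the higher calls then ran from 742 to 932 in the isthmus and from 766 to 1004 in the ampulla. Lower members numbered 0 to 1 in the isthmus over the heifers left out (PRIM1 without FP heifer 3) and 1 with no minimum fold (RFC5). Under the F-test with least significant differences, 17 of the 19 ampulla calls and 13 of the 13 isthmus calls were kept, and with the arrays of 1 tissue alone 13 of 19 and 13 of 13. All 32 were kept in the other alternatives without a left-out heifer that could be fitted.

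Between the tissues in the LP, higher members numbered 2 with no minimum fold (GINS1 and RRM1) and 0 to 2 over the heifers left out. Lower members numbered 2 with the F-test (MCM6 and TYMS), 2 with no minimum fold (ORC6 and TYMS), 0 with the heifer as a fixed replicate block and 0 to 2 over the heifers left out. In the FP lower members numbered 2 with the F-test (RRM2 and UHRF1) and 0 to 3 over the heifers left out (MCM5, RFC3 and POLE without FP heifer 3). The interaction was negative in 3 members with the F-test (GINS1, RRM1 and CHAF1A), where the contrast itself was not adjusted. It was called in 0 with either block. Both blocks use the FP pairing of the labels, which the arrays did not show, so nothing is concluded from their counts. The heifer as a random replicate block changed no call of a member, and as a fixed block the call of TYMS alone.

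Of the other replication genes, higher ones in the ampulla numbered 30 with no minimum fold and 14 to 20 over the heifers left out, and lower ones 5 with no minimum fold, 0 with the F-test, 0 with the arrays of the ampulla alone and 0 to 1 over the heifers left out. In the isthmus 22 were higher and 2 lower with no minimum fold, and 11 to 14 higher and 0 to 1 lower over the heifers left out.

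Differences near 0 that were called in no setting changed sign when a heifer was left out, and their ranges were -0.061 to 0.108 (MCM7), -0.244 to 0.0148 (POLD2), -0.0609 to 0.0491 (POLD3), -0.21 to 0.0782 (RRM1) and -0.0405 to 0.526 (CHAF1B) in the isthmus, and -0.0075 to 0.065 (POLA1), -0.1605 to 0.0185 (PRIM1), -0.02 to 0.169 (POLD3) and -0.132 to 0.122 (LIG1) in the ampulla. The cause of these changes was not tested. Sizes are uncertain where a group mean lies under the lower quartile, as for CDC6, GINS4 and TICRR.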
